A study of Mus musculus with 8 samples.

Results

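Cells whose receptor contigs comprised exactly 1 heavy chain, 1 kappa chain and 1 lambda chain were described in single-cell B-cell receptor sequencing of mouse germinal-centre B cells. All contig tables of the series were searched, and a barcode entered when it had 1 contig of each of the 3 chain types and no other. This rule found 284 of 52999 barcodes, here called trio cells, of which 126 lay in WT and 158 in Dtx1 knockout (KO) libraries. The cells came from spleens of WT mice (genotype Dtx1+/+) and of DTX1_KO mice (Dtx1-/-), all immunized and taken on day 10. Both genotypes were enriched with peanut agglutinin (PNA) beads and sorted by flow cytometry before droplet loading, and each gave 4 libraries. The sources used here do not give the immunogen, the sort gates, the strain, age or number of the mice, or whether a library is 1 mouse or a portion of a pool. Receptor contigs hold no Dtx1 transcript and no transcript of germinal-centre markers, so neither the knockout nor the sorted cell type could be checked here beyond the receptor chains.

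A B cell usually displays 1 heavy chain and 1 light chain, because a productive receptor stops further gene rearrangement. Light chains come from the kappa locus or from the lambda locus. In mice kappa is rearranged first, and lambda is opened mainly after kappa has failed or has given a self-reactive receptor, a process known as receptor editing. Successive kappa rearrangements on an allele delete the V and J genes in between and move to more downstream J genes, the last of which is IGKJ5. A cell that keeps a productive kappa and a productive lambda chain is said to show isotypic inclusion. In the germinal centre, where B cells mutate their V genes and compete for antigen, such a cell could carry receptors of both light chains.

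The junctions (CDR3) of the trios found in the most cells show what defines a member, namely 3 productive chains that can be followed by sequence. Capitals mark the conserved codons at both ends, and all sequences run 5′ to 3′. The first heavy and kappa lines belong to a KO trio, the next heavy line to a WT trio with the identical kappa junction, and the remaining pairs to KO trios.
KO IGHV1-55 heavy: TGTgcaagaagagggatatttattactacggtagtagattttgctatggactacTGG
IGKV6-17 kappa with both IGHV1-55 chains: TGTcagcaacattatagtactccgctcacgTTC
WT IGHV1-55 heavy: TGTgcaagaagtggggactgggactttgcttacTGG
KO IGHV3-4 heavy: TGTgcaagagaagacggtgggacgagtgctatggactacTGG
its IGKV1-117 kappa: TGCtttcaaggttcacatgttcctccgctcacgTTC
KO IGHV1-7 heavy, first trio: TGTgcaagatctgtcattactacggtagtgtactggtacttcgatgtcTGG
its IGKV3-5 kappa: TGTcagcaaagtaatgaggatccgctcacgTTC
KO IGHV1-7 heavy, the other trio: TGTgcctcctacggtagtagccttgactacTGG
its IGKV6-23 kappa: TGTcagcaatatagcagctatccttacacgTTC

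The lambda chains of the trio cells came from a smaller set than their kappa chains. As background, mice have few lambda V genes. The 284 cells held 38 distinct lambda junctions, against 160 distinct kappa chains (V gene and junction). The 5 most common lambda junctions covered 72.9% of trio cells, and the 5 most common of the single-lambda cells covered 72.6% of those. The 5 of the trio cells were in 65.3% of single-lambda cells. The 6 most common junctions are shown here, and capitals mark bases of the IGLV1 lines that differ from the leading IGLV1 junction.
IGLV1 junction a (leading): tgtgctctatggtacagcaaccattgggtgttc
IGLV1 junction b: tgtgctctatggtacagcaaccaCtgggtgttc
IGLV1 junction c: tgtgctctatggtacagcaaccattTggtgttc
IGLV1 junction d: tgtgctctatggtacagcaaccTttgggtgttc
IGLV2, leading: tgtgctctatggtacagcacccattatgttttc
IGLV3, leading: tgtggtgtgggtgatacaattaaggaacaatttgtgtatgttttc
Junction a lay in 87 trio cells with 52 different heavy chains, and in 532 cells that had this lambda chain as their only light chain. Junction b lay in 47 trio cells, 39 of them KO, with 23 heavy chains. The leading IGLV2 junction lay in 34 trio cells with 26 heavy chains, and that of IGLV3 in 15 trio cells with 10. A lambda junction therefore does not identify a clone by itself. The kappa chains were more particular. Of the 160, 136 lay with a single heavy chain, 1 kappa chain lay with as many as 6, and none lay with more than 2 heavy chains among the trio cells of a library.

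Libraries held 11666 to 14732 contigs, 754954 to 1155339 unique molecular identifiers (UMIs, each standing for 1 captured transcript) and 32395632 to 47934592 reads, so the number of trio cells, 24 to 54 per library, limits the precision. No barcode listed more than 2 light or 2 heavy contigs, and no barcode without a heavy chain listed 2 light chains, so a trio was the fullest light-chain set a 1-heavy barcode could show. Of 51304 distinct barcodes, 1671 occurred in 2 or more libraries, and the barcodes of 24 trio cells were among them. Of the 32 trios found in more than 1 cell, 24 spanned libraries of a genotype and 0 spanned both genotypes. Libraries of a genotype may thus be portions of 1 pool of cells, so SD and p values below compare 2 pools and not independent animals. No trio cell carried IGKV6-13, and in 5 trio cells at least 1 chain had fewer than 5 UMIs.

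Trio cells were rare in both genotypes, at well under 1% of cells with 1 heavy chain. In WT libraries they made up 0.690%, 0.532%, 0.470% and 0.705% of the 1-heavy cells, a mean of 0.599% ± 0.116 (SD, n = 4). In KO libraries the shares were 0.861%, 0.485%, 0.646% and 0.581%, a mean of 0.643% ± 0.160 (SD, n = 4). The highest and the next to lowest of the 8 values were both KO, and the groups overlapped. The difference, 0.0439 percentage points, was smaller than the spread between libraries (exact two-sided permutation test over 70 assignments, p = 0.657, Benjamini-Hochberg adjusted 0.847 over 21 measures of the trio cells). Its direction depended on the cells and libraries that entered. It was -0.146 points (exact p = 0.0286) without light chains shared by 3 or more heavy chains, which removed 190 of 284 trio cells. The same limit on kappa chains alone removed 0 trio cells, so all 190 were removed for common lambda junctions, which do not identify a clone. With this setting the KO minus WT difference therefore covers only cells with rarer lambda junctions. The difference was -0.0716 points (exact p = 0.4) without the 5 trios of 8 or more cells, -0.0851 with each trio counted once per library, and -0.0288 without the first KO library, whose share was 0.861%. Wilson 95% intervals, which cover counting error only, ran from 0.316 to 0.699% in the lowest library and from 0.661 to 1.12% in the highest.

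The genotypes did not overlap when the share was taken over cells with a lambda chain, though the difference did not pass after adjustment. Of the cells with 1 heavy and 1 lambda chain and at most 1 kappa chain, those that also held kappa were 11.1%, 9.09%, 8.19% and 11.7% in WT libraries, and 23.6%, 15.1%, 19.2% and 17.6% in KO libraries. Every KO library lay above every WT library, with means of 18.9% ± 3.56 and 10.0% ± 1.65 (SD, n = 4 each; exact permutation p = 0.0286, the smallest 70 assignments can give; adjusted p = 0.15, which does not pass 0.05). The gap was 8.85 points. It was 5.27 points (exact p = 0.0571) with each trio counted once per library and 5.51 points (exact p = 0.0286) without the trios of 8 or more cells, and p was 0.0571 without the second or the third WT library. The denominator moved with genotype. Cells with lambda as their only light chain were 5.36% ± 0.0998 of 1-heavy cells in WT and 2.74% ± 0.0356 in KO (SD, n = 4 each), while trio cells were at 0.599 and 0.643%.

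**Figure D1:**
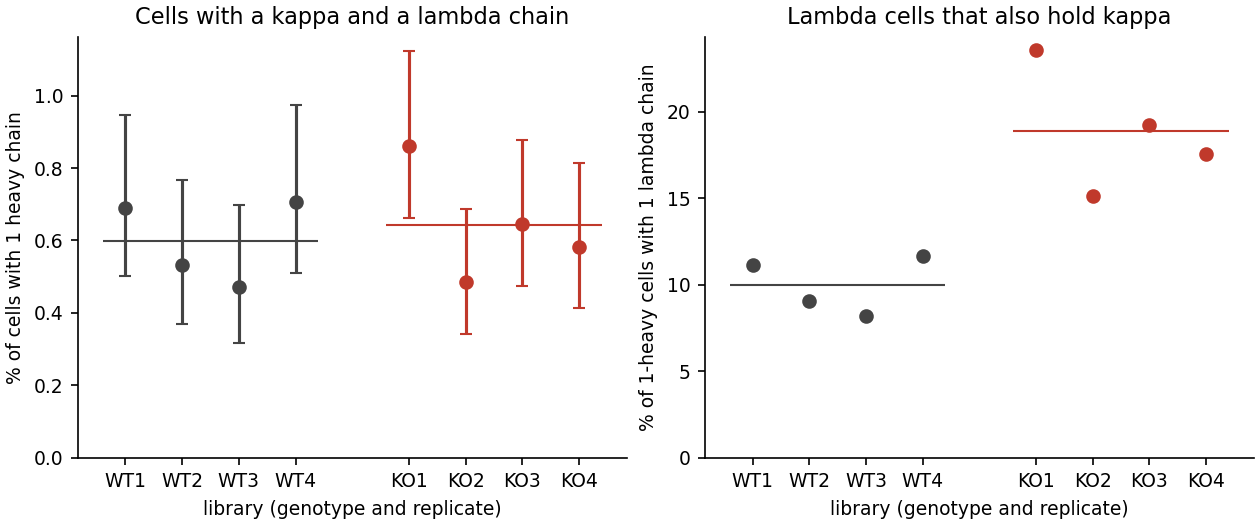
Share of trio cells in each library. The left panel gives percent of 1-heavy cells with Wilson 95% intervals as bars, and the right panel percent of cells with 1 heavy and 1 lambda chain that also hold a kappa chain, with horizontal lines at the group means. The genotypes overlap on the left (0.470 to 0.705% in WT, 0.485 to 0.861% in KO) and are apart on the right (8.19 to 11.7% and 15.1 to 23.6%).

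A droplet that caught 2 cells could also list a kappa and a lambda chain, so barcodes with 2 heavy chains were set beside the trio cells. There were 1723 of them, or 3.25% of barcodes, and 92 (5.34%) held 1 kappa and 1 lambda chain. Those 92 barcodes had summed heavy-chain UMIs of 47.5 (median, WT) and 91.5 (KO), against 21 and 38 in trio cells. Cells with 1 kappa chain had 23 and 40. The heavy-chain sum adds 2 chains in the 92 barcodes, whereas a trio cell has 1 by the rule. Summed light-chain UMIs (median, WT and KO) were 179 and 181.5 in the 92 barcodes and 131.5 and 157.5 in trio cells. Cells with 1 kappa chain had 65 and 76 light-chain UMIs. Whether droplets with 2 cells account for some trio cells was not tested further, and no doublet caller was run.

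Both light chains were abundant in most trio cells. Kappa UMIs per cell had a median of 73 (range 6 to 2337) and lambda UMIs a median of 64 (range 1 to 603). Lambda made up a median of 47.4% of a cell's light-chain UMIs, with the lowest cell at 6.48% and the highest at 85.7%. A cell was called dominated by one chain when that chain held 80% or more of its light UMIs. By this limit 264 trio cells (93.0%) were balanced, 16 were kappa-dominant and 4 lambda-dominant, and 42 cells lay within 5 points of a limit. The 2 chains were within 2-fold of each other in 190 cells (66.9%). Kappa was the more abundant chain in 163 cells, lambda in 118, and 3 cells had equal numbers. Within libraries, the median log2 ratio of kappa to lambda UMIs was 0.12 ± 0.09 (SD, n = 8), above 0 in 7 of 8 libraries (exact two-sided sign-flip test, p = 0.0156). The same log2 ratio between the medians of single-kappa and single-lambda cells was 0.05 ± 0.12 (SD, n = 8, exact sign-flip p = 0.312). Neither of these p values was adjusted. The median lambda percent was 40.1% in the 50 cells of the 5 trios found in 8 or more cells. In the 165 cells whose trio was seen once it was 49.3%. The kappa to lambda ratio was not tested without the largest trios.

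Lambda V genes gave similar balances. The median lambda percent of light UMIs was 46.6% in 213 IGLV1 cells, 47.5% in 54 IGLV2 cells and 52.4% in 17 IGLV3 cells. Genotypes were close as well, with library means of 48.3% in WT and 47.4% in KO (exact permutation p = 0.429, adjusted 0.692).

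**Figure D2:**
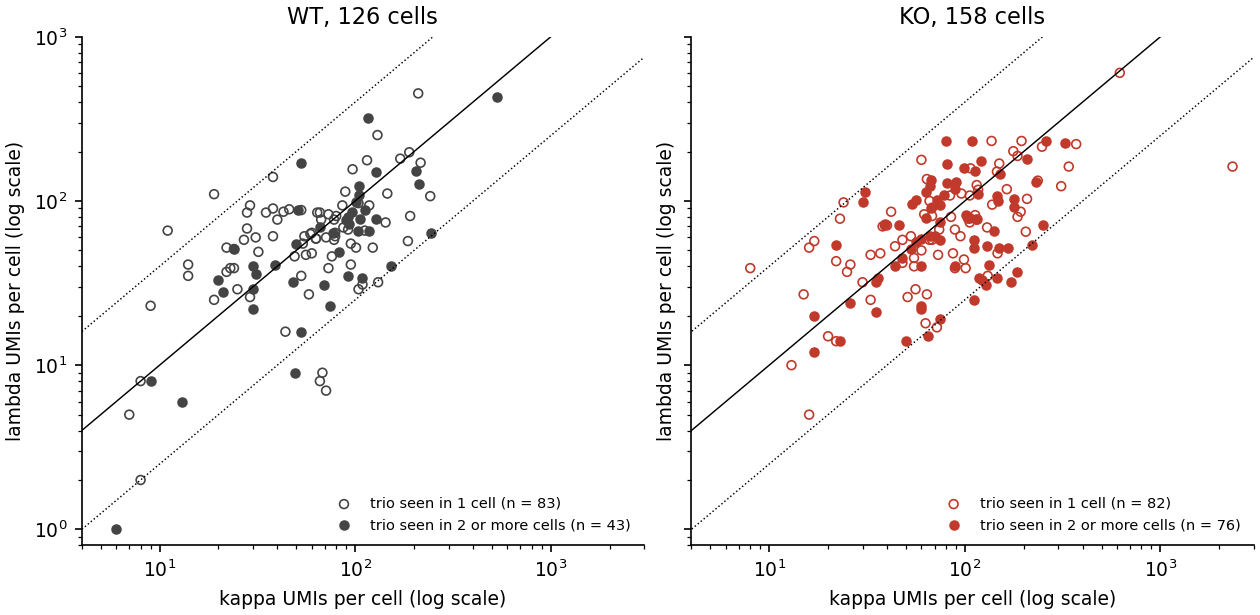
Kappa against lambda UMIs for every trio cell, WT on the left and KO on the right, both axes logarithmic. The solid line marks equal numbers and the dotted lines 80% of light UMIs in 1 chain; filled points belong to trios seen in 2 or more cells. Most points, 264 of 284, lie between the dotted lines in a single cloud.

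The sum of light-chain transcripts was higher in trio cells than in cells with a single kappa chain, while their kappa transcripts did not pass a test of difference. The rule requires a kappa and a lambda chain in trio cells, so their sum counts a chain that single-kappa and single-lambda cells lack. The tests of this sum therefore cannot show a difference beyond that added chain. The median of kappa plus lambda UMIs in the trio cells of WT libraries was 135.5, 111, 136 and 128.5, and in KO libraries 186, 156, 157.5 and 128. In cells with a single kappa chain the WT medians were 63 to 68 and the KO medians 70 to 79. The trio cells were higher in 8 of 8 libraries, at 142 ± 23.3 against 70.5 ± 6.37 UMIs (SD, n = 8), a ratio of 2.02 (exact sign-flip p = 0.00781, the smallest 8 libraries allow, adjusted 0.0443 over 17 measures). Against single-lambda cells, at 68.8 ± 11.3, the values were also higher in 8 of 8 libraries, but the adjusted p was 0.102 (SD, n = 8, exact p = 0.00781).

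Taken chain by chain, no difference passed after adjustment. Kappa UMIs were 71.1 ± 9.31 in trio cells and 70.5 in single-kappa cells, higher in 4 libraries and lower in 4 (SD, n = 8, exact p = 0.789). Lambda UMIs were 62.9 ± 8.65 in trio cells and 68.8 in single-lambda cells, lower in 6 of 8 libraries (SD, n = 8, exact p = 0.0469, adjusted 0.203). Heavy-chain UMIs were 28.9 ± 10.5 in trio cells and 31.3 ± 8.96 in single-kappa cells (SD, n = 8, exact p = 0.203). In cells with 20 to 40 heavy-chain UMIs the lambda difference was 5.31 UMIs in the other direction, higher in trio cells (exact p = 0.211).

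Cells with 1 heavy and 2 kappa chains are the other common class with a pair of light chains, and they numbered 2914. The minor of the 2 light chains held 38.9% ± 2.26 of light UMIs in trio cells and 39.1% ± 0.748 in 2-kappa cells (SD, n = 8, exact p = 0.797). The differences within libraries ran from -2.38 to 4.03 points across libraries. Total light UMIs were 142 and 129 (exact p = 0.0391, adjusted 0.0684). Heavy-chain UMIs were 28.9 in trio cells and 35.2 in 2-kappa cells, lower in 7 of 8 libraries and equal in the other (exact p = 0.0156, adjusted 0.0547).

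**Figure D3:**
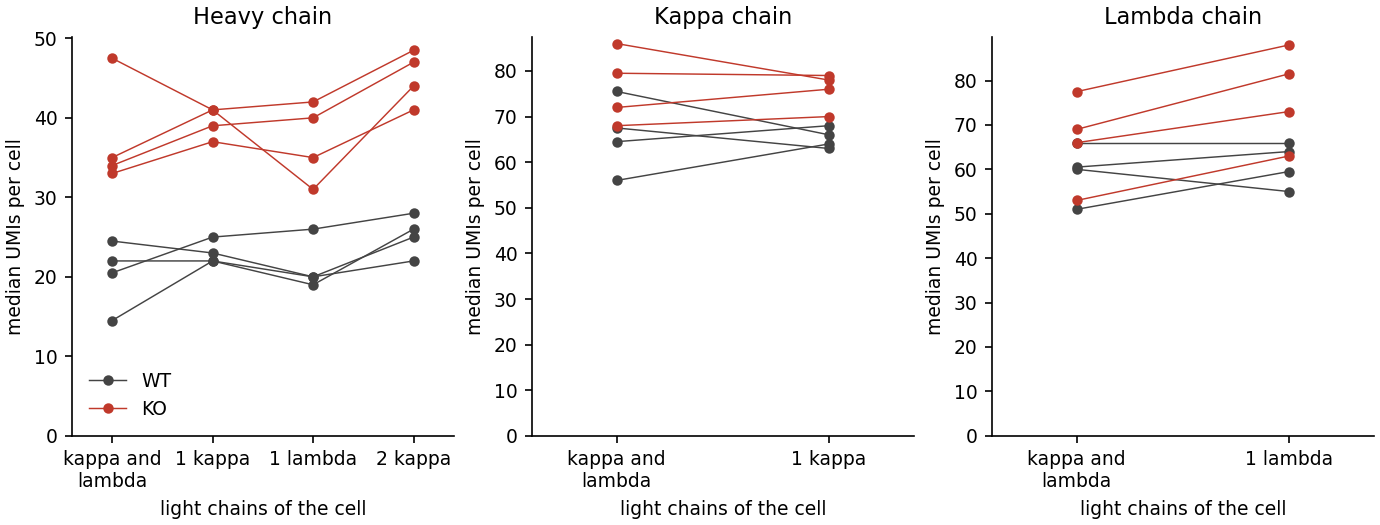
Median UMIs per cell of the heavy, kappa and lambda chain in each library, by the light chains of the cell; lines join values of the same library. Kappa medians lie at 56 to 86 UMIs in trio cells and 63 to 79 in single-kappa cells, and heavy-chain medians separate WT (14.5 to 24.5 in trio cells) from KO (33 to 47.5) in each class.

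Heavy-chain UMIs of trio cells were 22, 14.5, 24.5 and 20.5 in WT and 47.5, 34, 35 and 33 in KO libraries, so the genotypes did not overlap (means 20.4 and 37.4, exact permutation p = 0.0286, adjusted 0.15). The same gap was present in single-kappa cells, at 23.0 and 39.5, and the difference between trio and single-kappa cells gave no test result under 0.05 between genotypes (exact permutation p = 0.914).

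The kappa chains of trio cells used the most downstream J gene far more often than those of other cells. IGKJ5, at chromosome 6 positions 70723886 to 70723923 (mm10), is the last functional kappa J gene and leaves no J gene for a later rearrangement on that allele. It was used in 133 of 284 trio cells. Its share in WT libraries was 57.9%, 35.7%, 41.7% and 41.7%, and in KO libraries 63.0%, 41.9%, 42.5% and 36.4%. Single-kappa cells of the same libraries stood at 22.9 to 24.0% in WT and 27.5 to 28.4% in KO, so no library overlapped. The means were 45.1% ± 9.91 and 25.7% ± 2.35 (SD, n = 8), a difference of 19.4 points in the same direction in 8 of 8 libraries (exact sign-flip p = 0.00781, adjusted 0.0443). The adjusted value counts in its family the sum of light-chain UMIs, which the rule itself raises and which has the same exact p. With that sum left out of the family, the adjusted p would be above 0.05.

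IGKJ1, the first J gene (70722562 to 70722599), showed the opposite. It was used in 30 trio cells, a mean share of 10.7% ± 3.18 against 27.2% ± 0.761 in single-kappa cells (SD, n = 8), lower in 8 of 8 libraries (exact p = 0.00781, adjusted 0.0443). The limit given for the adjusted p of IGKJ5 holds here too. The J genes in between did not pass the test. IGKJ2 was used in 77 trio cells, 28.0% ± 10.0 against 32.4% ± 2.90 (SD, n = 8, exact p = 0.25), and IGKJ4 in 44, 16.2% ± 7.78 against 14.7% ± 1.19 (SD, n = 8, exact p = 0.625).

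In 2-kappa cells only the kappa chain with more UMIs was counted, and IGKJ5 was at 26.5% ± 5.00 of these chains. That share was below the trio cells in 8 of 8 libraries, though the adjusted p was 0.0547 (SD, n = 8, exact sign-flip p = 0.00781). Trio cells were at 44.2% in WT and 45.9% in KO (exact permutation p = 0.629).

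The IGKJ5 difference was smaller without the largest clones. IGKJ5 was in 4 of the 5 trios of 8 or more cells. Without these trios the difference from single-kappa cells was 11.4 points (exact p = 0.0391), and with every combination of chains counted once per library it was 15.5 points (exact p = 0.00781). Among trios seen in a single cell, 58 of 165 (35.2%) used IGKJ5, and among those seen in 2 or more cells 16 of 32 (50%).

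**Figure D4:**
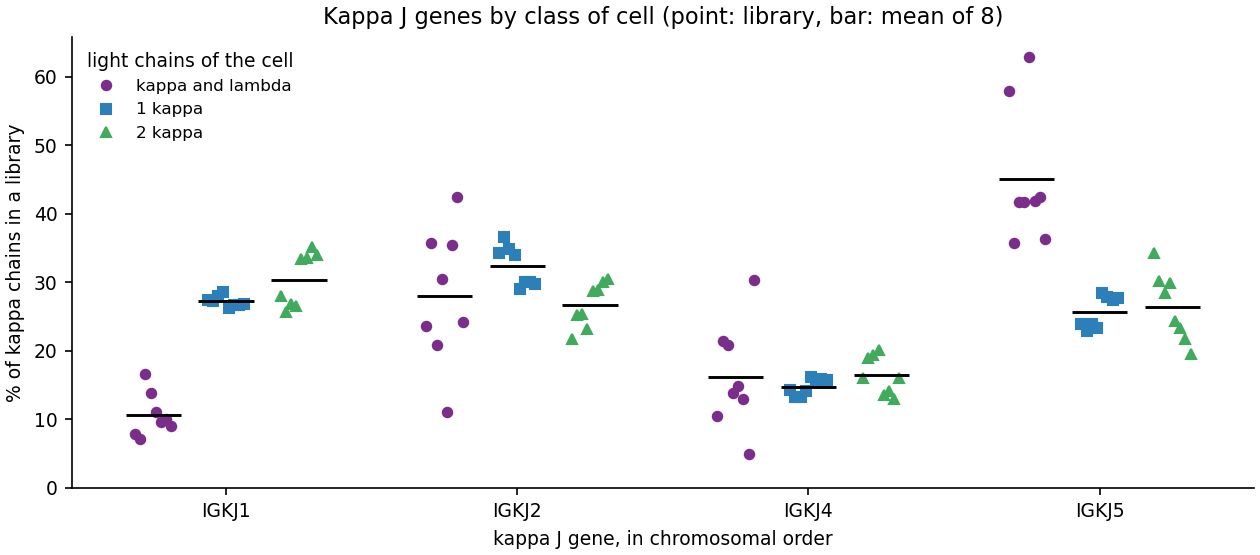
Share of each kappa J gene, in chromosomal order, among the kappa chains of trio cells, single-kappa cells and 2-kappa cells. For 2-kappa cells only the kappa chain with more UMIs is counted. Points are libraries in the order WT 1 to 4, KO 1 to 4, and bars are means of 8. IGKJ1 is at 7.14 to 16.7% and IGKJ5 at 35.7 to 63.0% in trio cells, outside the range of single-kappa cells in every library.

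The position of the V genes was compared in the same way. The 95 IGKV genes of these cells were ordered by their mm10 distance to IGKJ1 and divided into 3 sets. The 32 nearest genes, 18.4 to 822 kb away, supplied 37.0% of the kappa chains of trio cells and 29.6% of single-kappa cells, higher in 7 of 8 libraries (exact p = 0.0234, adjusted 0.0664). The 31 farthest genes, 1887 to 3166 kb away, supplied 35.7 and 46.7%, lower in 7 of 8 libraries (exact p = 0.0156, adjusted 0.0664). Neither passed 0.05 after adjustment over the 17 measures, and both were at 0.0352 when only the 3 sets were adjusted. Without the trios of 8 or more cells the difference was -1.67 points for the nearest genes (exact p = 0.625), against 7.39 with them.

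Single kappa V genes were compared by cell counts. In edgeR's quasi-likelihood test with the library as a block, 7 of 52 IGKV genes tested (13.5%) differed between trio and single-kappa cells at an adjusted p under 0.05, 5 higher (9.62%) and 2 lower (3.85%). The split depended on scaling: with TMM factors, which lowered the median log2 fold change of the 52 genes from -0.32 to -1.66, 0 were higher and 20 lower.

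IGKV6-17 (chromosome 6, 70371469 to 70371993) was the kappa gene found in the most trio cells. It lay in 26 of them, with 3, 3, 2 and 2 in WT and 5, 3, 4 and 4 in KO libraries. That is 9.19% ± 1.98 of a library's trio cells against 2.66% ± 0.634 of its single-kappa cells (SD, n = 8), a log2 fold change of 1.81 ± 0.35 (SE; edgeR adjusted p = 2.16e-05). The 26 cells were 6 trios, and 21 of them were the 2 IGHV1-55 trios shown above. Without trios of 8 or more cells the log2 fold change was -0.32 (edgeR adjusted p = 0.914).

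IGKV3-7 was called with or without the largest trios. It lay in 12 trio cells of 7 trios, 10 of the cells WT, at 4.81% ± 5.99 against 0.751% (SD, n = 8), a log2 fold change of 2.47 ± 0.56 (SE; edgeR adjusted p = 0.000365). Without trios of 8 or more cells the value was 2.76 (edgeR adjusted p = 5.39e-05). IGKV4-74 lay in 10 trio cells of 5 trios, all KO, with a log2 fold change of 2.17 (edgeR adjusted p = 0.00403, and 0.125 or 0.0858 without the first or the fourth KO library). IGKV3-5 also lay in 10 KO cells, but these were 1 trio (1.98, edgeR adjusted p = 0.0128), and leaving out any KO library took the adjusted p above 0.05. The remaining called gene, which the plot of recurrent trios shows with IGHV1-19, lay in 11 cells of 7 trios, 6 WT and 5 KO (1.55, edgeR adjusted p = 0.0372), and leaving out any library but the third WT library took its adjusted p above 0.05.

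The 2 genes that were lower are among the more common kappa genes of these germinal-centre cells. IGKV1-110 (chromosome 6, 68270527 to 68271265) lay in 1 of 284 trio cells and in 1810 of 38806 single-kappa cells, a ratio of shares of 0.0755 (95% exact counting interval 0.00191 to 0.421; edgeR adjusted p = 0.00198). IGKV10-96 lay in 3 trio cells and 1695 single-kappa cells, a ratio of 0.242 (0.0498 to 0.708; edgeR adjusted p = 0.0335), and its adjusted p was above 0.05 when any library but the second or the third KO library was left out. Of the other frequent genes, IGKV1-117 was in 17 trio cells, 16 of them KO, IGKV2-137 in 12 cells of 11 trios and IGKV1-135 in 11 cells of 10 trios. IGKV4-57 and IGKV6-23 were in 10 cells each, the latter mostly through 1 trio of 8 cells. None of these 5 was called.

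On the heavy-chain side, 4 of 48 IGHV genes tested (8.33%) were called against cells with 1 heavy and 1 light chain, all of them higher in trio cells; with TMM factors, which moved the median log2 fold change from -0.26 to -1.13, 1 was higher and 19 lower. IGHV1-55 (chromosome 12, 115208137 to 115208527) was in 35 trio cells of 13 trios, 12.7% ± 4.41 against 5.02% ± 1.54 (SD, n = 8). Its log2 fold change was 1.35 ± 0.30 (SE; edgeR adjusted p = 0.000245). IGHV1-7 was in 20 trio cells of 4 trios, 5 in each KO library and none in WT, although it was in 0.589% of the WT and 1.09% of the KO comparison cells (log2 fold change 2.98 ± 0.48, SE; edgeR adjusted p = 6.16e-08). Without trios of 8 or more cells IGHV1-55 was at 0.26 and IGHV1-7 at 0.02 (edgeR adjusted p = 0.907 and 0.999).

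IGHV9-3 and IGHV5-9 were spread over more trios. IGHV9-3 was in 27 cells of 19 trios (log2 fold change 0.99, edgeR adjusted p = 0.0338) and IGHV5-9 in 8 cells of 7 trios (2.02, edgeR adjusted p = 0.0338). Both remained called without the trios of 8 or more cells (edgeR adjusted p = 0.0157 each), and for both, leaving out any of 5 single libraries took the adjusted p above 0.05. IGHV3-4 was too rare to be tested. It was in 27 comparison cells of the whole series and in 11 trio cells, all of 1 KO trio. IGHV8-8 was in 12 trio cells, IGHV1-53 in 9, and IGHV1-19 and IGHV1-26 in 8 each, and none of these 4 was called. Between genotypes, trio cells were too few for the filter on low counts, and 0 IGKV genes could be tested. With no filter, 66 genes were tested and edgeR called 3, with 10 at an unadjusted p under 0.05.

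No lambda V gene passed a test of difference from single-lambda cells. IGLV1 (chromosome 16, 19085017 to 19085460) was in 213 trio cells, IGLV2 in 54 and IGLV3 in 17. Their mean shares were 74.8%, 18.9% and 6.35%, against 70.7%, 18.7% and 10.7% in single-lambda cells. The exact p values were 0.125, 0.953 and 0.141. The J and constant genes were present in equal numbers, with IGLJ1 and IGLC1 in 209 trio cells, IGLJ2 and IGLC2 in 64, and IGLJ3 and IGLC3 in 11. In the heavy chain, IGHJ1 was in 56, IGHJ2 in 76, IGHJ3 in 78 and IGHJ4 in 74 trio cells, at mean shares of 19.7, 27.4, 28.3 and 24.5% against 17.2, 30.2, 26.4 and 26.1% in the comparison cells; these were not tested.

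Nearly all trio cells were of the IgM class. IGHM was the constant gene of 267, IGHG1 of 7 (6 of them KO), IGHG2B of 6 (5 of them WT) and IGHG3 of 2, with 2 cells lacking a constant gene. IGHA, IGHG2C and IGHD were in 0 trio cells, which for IGHD, the mark of a naive B cell, allows up to 3 cells. Switched cells made up 5.54% ± 4.81 of trio cells and 7.19% ± 0.688 of single-kappa cells (SD, n = 8, exact p = 0.352). The 7 IGHG1, 6 IGHG2B and 2 IGHG3 cells were of 7, 6 and 2 different trios.

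Most trio cells had no mutation in the V genes of any chain. Mutations were counted against the most common V sequence over clones, which was available for the heavy V gene of 271 trio cells, the kappa V gene of 279 and the lambda V gene of all 284. The heavy V gene was unmutated in 213 cells, kappa in 236 and lambda in 255. Of 266 cells with all 3 measured, 197 had none mutated and 15 had mutations in each chain. Among the 58 cells with a mutated heavy V gene, kappa was also mutated in 34 and lambda in 24. The most mutations in a single V gene were 8 in a heavy, 7 in a kappa and 5 in a lambda chain.

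Heavy V mutation of trio and single-kappa cells gave no difference that passed after adjustment. The mean mutation frequency was 0.238% ± 0.135 of nucleotides against 0.334% ± 0.119 (SD, n = 8), lower in 6 of 8 libraries (exact p = 0.0469, adjusted 0.0996). The unmutated share was 78.1% ± 8.17 against 71.3% ± 7.24, higher in 7 of 8 libraries (SD, n = 8, exact p = 0.0234, adjusted 0.0664). Without the trios of 8 or more cells the 2 differences were -0.0589 and 3.16 (exact p = 0.219 and 0.352). Within trio cells, the mutation frequency of the lambda minus that of the kappa V gene was -0.0439 ± 0.0602 percentage points (SD, n = 8), below 0 in 7 of 8 libraries (exact p = 0.0703).

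Between genotypes, no mutation measure of the trio cells passed after adjustment. Heavy V mutation was 0.323, 0.476, 0.229 and 0.253% in WT and 0.0381, 0.304, 0.129 and 0.153% in KO libraries, and the groups overlapped (means 0.320 and 0.156%, exact permutation p = 0.0857). Kappa V mutation had means of 0.181 and 0.0952% (exact permutation p = 0.0857). In single-kappa cells WT and KO libraries did not overlap, at means of 0.444 and 0.224% for heavy and 0.214 and 0.109% for kappa V mutation. Heavy V mutation was also apart in 2-kappa cells (0.326 and 0.186%), and overlapped in single-lambda cells (0.265 and 0.204%). The gaps in these other classes were not tested. Lambda V mutation of trio cells was 0.0885, 0.134, 0.203 and 0.0728% in WT and 0.0624, 0.0725, 0.0468 and 0.0567% in KO libraries. These did not overlap (means 0.124 and 0.0596%, exact permutation p = 0.0286, adjusted 0.15), and the difference was -0.0561 (exact permutation p = 0.171) without the trios of 8 or more cells. In single-lambda cells lambda V mutation had means of 0.0885% in WT and 0.0533% in KO, and the libraries overlapped. The heavy CDR3 of trio cells had 14.4 amino acids in KO and 13.7 in WT, with no overlap between libraries (exact permutation p = 0.0286, adjusted 0.15), and this gap was 0.170 amino acids (exact p = 0.629) without those trios. The genotypes did not overlap in the other classes either, with means of 13.2 in WT and 13.8 in KO for single-lambda cells, 14.3 and 14.9 for 2-kappa cells, and 14.4 and 14.5 for single-kappa cells. Of the 21 measures compared between genotypes, 4 had an unadjusted p under 0.05 and 0 passed after adjustment.

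The same 3 chains were found again in other cells for part of the trio cells. The 284 trio cells held 197 distinct trios, 96 WT and 101 KO, where a trio means the same V gene and CDR3 nucleotides in all 3 chains. Of these, 165 were seen in 1 cell and 32 in 2 or more. The 32 recurrent trios held 119 cells, or 41.9% of trio cells (Wilson 95% interval 36.3 to 47.7, counting error only). There were 24 trios, with 102 cells, in 2 or more libraries of a genotype, and 6 trios were in all 4. With junctions matched at a nucleotide identity of at least 0.85, 45.4% of trio cells recurred. Recurrence was not particular to trio cells. Taken per library, its mean was 42.4% in trio cells, 57.0% in single-kappa, 45.3% in single-lambda and 49.1% in 2-kappa cells. These differences were not tested. The other classes hold more cells, and in single-kappa and single-lambda cells a match needs only 2 identical chains.

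Recurrence was 36.8%, 35.7%, 50% and 19.4% of trio cells in WT libraries and 42.6%, 54.8%, 45% and 54.5% in KO libraries. The means were 35.5% ± 12.5 and 49.2% ± 6.37 (SD, n = 4 each), and the groups overlapped (exact permutation p = 0.0857, adjusted 0.257). The gap was 13.7 points, and 2.10 points (exact p = 0.8) without the trios of 8 or more cells, 4 of which were KO and 1 WT.

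**Figure D5:**
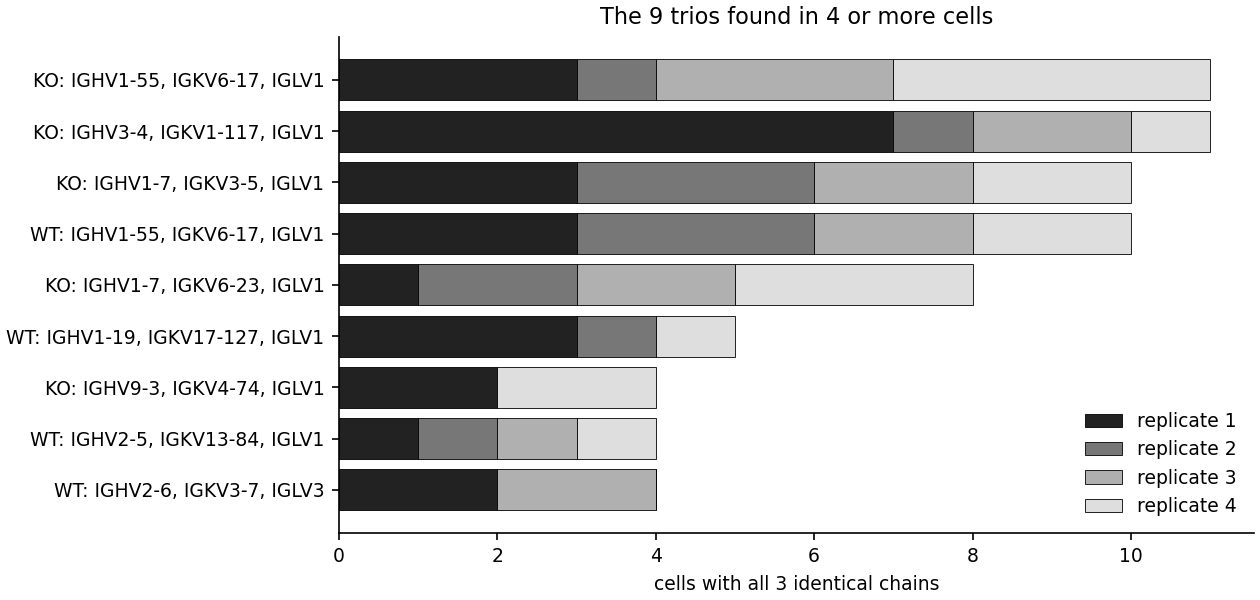
The 9 trios found in 4 or more cells, as bars divided by library of the genotype; each row names the genotype and the 3 V genes. The 5 longest bars, of 8 to 11 cells, have cells in all 4 libraries, and 4 of these 5 are KO.

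Those 5 trios held 50 cells, all IgM, and used the sequences printed above. The KO IGHV1-55 trio had 11 cells, with 3, 1, 3 and 4 in the libraries, and the WT IGHV1-55 trio had 10, with 3, 3, 2 and 2. Both joined an identical IGKV6-17 and IGKJ5 kappa junction to different heavy junctions, of 57 nucleotides in KO and 36 in WT, and to different IGLV1 junctions (b in KO and d in WT). Lambda held a median of 40.3% of light UMIs in the KO trio and 42.5% in the WT trio. The same kappa junction was not restricted to trio cells. Of 442 single-kappa cells with IGHV1-55 and IGKV6-17, 66 had it.

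The KO IGHV3-4, IGKV1-117 and IGLV1 trio had 11 cells, 7 of them in the first KO library and 1, 2 and 1 in the others. Its light chains were the least even of the 5, with a median of 149 kappa and 52 lambda UMIs and lambda at 15.6 to 47.6% of light UMIs. The KO IGHV1-7, IGKV3-5 and IGLV1 trio had 10 cells, a median of 8.5 heavy-chain UMIs, and lambda at a median of 52.8%. The KO IGHV1-7, IGKV6-23 and IGLV1 trio had 8 cells and was the only one of the 5 without IGKJ5, using IGKJ2. The 5 trios had 0 mutations in kappa and lambda V genes, and the 4 with a heavy germline had 0 in the heavy V gene; IGHV3-4 had none to compare with.

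Trio cells could also be followed through cells that shared only the heavy chain. In WT, 58 of 126 trio cells had another cell of the genotype with the same heavy V gene and junction, and in KO 94 of 158. With cells of the other genotype as background, 1 WT and 1 KO trio cell had such a match. For 43 WT and 76 KO cells the match was the same trio. For 6 WT and 26 KO cells a match carried the same kappa chain as its only light chain, and for 11 WT and 13 KO cells the same lambda chain alone. For 19 WT and 28 KO cells a match carried some other set of light chains. In 4 KO cells and 0 WT cells the kappa alone and the lambda alone were both found.

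Cells with a single light chain of the trio were found for few trios. Of 197 trios, 15 had cells with the same heavy and kappa chain and no lambda, and 17 had cells with the same heavy and lambda chain and no kappa. The most single-kappa cells, 36, belonged to a KO IGHV1-53, IGKV2-137 and IGLV1 trio that was itself seen in 1 cell, and no other trio had more than 5. The most single-lambda cells, 54, belonged to a WT IGHV9-3, IGKV3-7 and IGLV1 trio of 2 cells, and the next count was 23. In these clones the trio was thus the rarer form. Among the 5 largest trios, that of IGHV1-7 and IGKV3-5 had 5 single-kappa cells beside its 10 trio cells. The other 4 of the 5 largest trios had 0 cells with their heavy chain and only 1 of the light chains, and every match of these 4 heavy chains was the same trio.

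Recurrent and single trios differed in description. Trio cells of recurrent trios were IgM in 116 of 119 and had an unmutated heavy V gene in 92.6%, and the 165 cells of single trios were IgM in 151 and unmutated in 69.3%. Identical junctions define a recurrent trio, so a mutation within a junction takes a cell out of it, and these shares carry no test. The minor light chain held 38.6% (median) of light UMIs in recurrent and 38.8% in single trios. A heavy chain was seen again in another cell of the genotype for 53.5% ± 14.0 of trio cells and 62.4% ± 0.852 of single-kappa cells (SD, n = 8), lower in 7 of 8 libraries (exact p = 0.0469, adjusted 0.0996). The WT values were 60.5%, 46.4%, 58.3% and 22.2%, and the fourth WT library, the lowest, brought the difference from -8.90 to -4.48 points when left out. Single-lambda cells were at 50.6% ± 2.32, with trio cells higher in 6 of 8 libraries (SD, n = 8, exact sign-flip p = 0.625). In 2-kappa cells the share was 65.3% ± 2.91, with trio cells lower in 7 of 8 libraries (SD, n = 8, exact sign-flip p = 0.0234, adjusted 0.0547).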

How the data were processed

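Per the file headers, the 8 deposited tables give every assembled contig its gene names, region sequences, and counts of reads and of UMIs, whole and without normalization. Per the submitters' processing notes the authors used Cell Ranger and R 4.3.1 with genome build mm10; the sources used here give no other setting. Gene coordinates come from a RefSeq table of GRCm38.p6, which is mm10, where all gene names matched by symbol.

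Contigs were counted per barcode, with no filter on UMIs. A chain was its V gene and CDR3 nucleotides. Germline V sequences were the most common framework 1 to framework 3 sequence over 20 or more clones, so an allele or a mutation common to most clones is missed. Library values were medians (UMIs), means (mutation, CDR3 length) or percents. KO and WT were compared by exact two-sided permutation over 70 assignments, and trio cells with single-kappa, single-lambda and 2-kappa cells of the same library by exact sign flips over 256 patterns, with Benjamini-Hochberg adjustment in each family (21, 17, 13 and 7 measures). Heavy chains seen again and V position along the kappa locus were added to these families after the other measures had been set. For V genes, numbers of cells entered the quasi-likelihood test of edgeR 4.0.16 with the cells of each class as library size, and DESeq2 1.42.0 as an alternative, both in R 4.3.3. The scripts were tested on simulated data. The remainder was computed with SciPy 1.17.1, NumPy 2.4.6 and pandas 2.3.3 in Python 3.11.15, and plotted with matplotlib 3.10.9. The named genes are all J, lambda and heavy constant genes, the 8 most used and the called IGKV and IGHV genes (1 called IGKV gene is given by its values only), the 5 most recurrent trios and IGKV6-13; the trios of under 8 cells were named after their values were seen. Members, gene lists and tests were chosen with earlier results of these data known.

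Same-numbered WT and KO libraries did not deviate together (correlations of -0.118 to 0.0290), so their numbers were not treated as pairs.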

Additional observations from a re-analysis of the deposited data

Results flagged for a closer look

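Among 54 sets of 4 library values checked for a library that stands apart, 1 did. The median heavy-chain UMI count of trio cells was 47.5 in the first KO library and 33 to 35 in the other KO libraries, a gap of 0.862 of the range. About 1 in 20 such sets stands apart by chance. That library also held the most trio cells (54) and 7 of the 11 cells of the IGHV3-4 trio, whose median was 61 heavy-chain UMIs; the part of these cells in its value was not tested.

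Of 37 differences between trio cells and other cells that were compared between genotypes, 1 had an exact permutation p under 0.05. The heavy CDR3 of trio cells was shorter than that of single-kappa cells by 0.682 amino acids in WT (difference -0.682) and by 0.0541 in KO (difference -0.0541), so the gap between genotypes was 0.628 amino acids (exact permutation p = 0.0286, adjusted 0.529, which does not pass). Against single-lambda cells the same comparison gave 0.129 amino acids (exact permutation p = 0.714).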

How the results depend on the processing

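Of 291 values from 42 results under other settings, 201 kept their direction and side of the threshold (an unadjusted p of 0.05, or an adjusted one for edgeR), 58 lost the threshold, 2 gained it, 9 counts or shares moved and 21 reversed; leaving out 1 library gave 320 values, of which 239 stayed. Direction and threshold held for IGKJ1 and IGKJ5 against single-kappa cells under every setting run, at -16.7 to -14.3 points and 11.4 to 19.7 points. They also held for kappa plus lambda UMIs (58.5 to 87.1 UMIs), where the lambda chain that the rule requires raises the sum under any setting. The cause of the changes below was not tested, except that fewer cells enter where cells are left out. The settings without trios of 8 or more cells and without barcodes of 2 or more libraries were chosen after seeing the data. The number of trio cells, 24 to 54 per library, limits all values.

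Between genotypes, KO minus WT of the share of 1-heavy cells was 0.0439 points. It was -0.146 (exact p = 0.0286) without light chains shared by 3 or more heavy chains, which removed 190 of 284 trio cells, all for their lambda chains. The value was -0.0851 with each combination counted once and -0.0716 without trios of 8 or more cells. The share over lambda cells is a different measure with another denominator, although it was entered among these settings. Its KO minus WT was 8.85 points (exact p = 0.0286), and 5.27 with each combination counted once. With the replicate number as a block the difference over lambda cells was 8.85 with an exact p = 0.125, the smallest that 4 pairs allow. The numbers do not pair these libraries.

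Trio minus single-kappa cells changed as follows. With chains at 5 or more UMIs the differences were -4.19 heavy UMIs (exact p = 0.0391), -1.12 kappa UMIs and -0.0777 points of heavy V mutation. Heavy V mutation was -0.0944 without IGKV6-13 cells, -0.0926 with germlines from 50 or more clones, -0.132 at 20 to 40 heavy UMIs, -0.0589 without trios of 8 or more cells and -0.0956 (exact p = 0.154) with no replicate block. Heavy UMIs were 0.938 with each combination counted once, 1.75 at 20 to 40 heavy UMIs and 0.5 without trios of 8 or more cells. Kappa UMIs were -1.49 as means and -3.69 without those trios. At 20 to 40 heavy UMIs IGKJ2 was 1.55 and IGKJ4 -2.79 points. The nearest kappa V genes were at -1.67 without trios of 8 or more cells.

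Lambda UMIs against single-lambda cells were -5.81 with each combination counted once, 5.31 at 20 to 40 heavy UMIs, -4.12 without barcodes of 2 or more libraries and -5.88 (exact p = 0.269) with no replicate block. Against 2-kappa cells the minor chain was 0.0459 points with chains at 5 or more UMIs, 1.95 at 20 to 40 heavy UMIs and 0.171 without trios of 8 or more cells. Light UMIs were -9.95 as means and -0.312 without those trios, and heavy UMIs 1.19 at 20 to 40 heavy UMIs.

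Recurrence was 29.5% without trios of 8 or more cells. The edgeR calls among IGKV genes were 20 of 52 tested with TMM factors, 4 of 52 with DESeq2 and 3 of 39 with each combination counted once. Among IGHV genes they were 20 of 48, 4 of 48 and 2 of 45, and 2 of 48 without trios of 8 or more cells. Fewer genes were thus tested where combinations were counted once. Without those trios the log2 fold change was -0.32 for IGKV6-17 and -7.43 for IGKV3-5, which then had 0 trio cells, so that value is no bound. Within trio cells KO against WT, 3 of 66 IGKV genes were called with no filter on low counts and 1 of 66 with the replicate block added.

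Leaving out 1 library in turn gave -0.0288 to 0.0967 points for the share (reversed without the first KO library), 7.28 to 10.1 for the share over lambda cells, 8.39 to 18.6 for recurrence, -0.213 to -0.112 for heavy V mutation between genotypes and -0.120 to -0.0803 against single-kappa cells. It gave -3.64 to -1.64 heavy UMIs, -0.643 to 1.86 kappa UMIs (reversed without the third WT or the third KO library) and -0.410 to 3.23 points of IGKJ4 (reversed without the fourth KO library) against single-kappa cells, -0.821 to 0.0942 points of minor chain against 2-kappa cells (reversed without the fourth WT library) and -7.43 to -4.93 lambda UMIs. The IGKV calls were 3 to 6, with 50 to 54 genes tested, and were 3 of 50 without the first or the fourth KO library. The IGHV calls were 2 to 6, with 47 to 49 genes tested, and were 2 without the first WT, the third WT or the first KO library.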
